A study of Danio rerio with 4 samples.

Results

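The 9 genes described here belong to the p53 response and to the mitotic surveillance pathway that can switch it on. They are 6 target genes of the transcription factor p53 (mdm2, cdkn1a, ccng1, baxa, bbc3 and phlda3) and 3 genes of upstream sensors (pidd1, usp28 and tp53bp1). They were taken by their symbols from a table of 23236 gene rows, and each of the 9 had 1 row and passed the filter on low counts. RNA came from whole zebrafish (Danio rerio, strain AB) at 7 days post fertilisation. The 2 mutant and 2 sibling libraries were made from offspring of tubgcp6 heterozygotes that had been sorted by genotype. The siblings are labelled only as siblings, so heterozygotes and wild types may both be among them. The titles call the 2 libraries of each group biological replicates. The lesion in tubgcp6, the number of animals in a library and any sharing of clutches between groups were not given. The p-values therefore measure only the spread between these libraries, part of which may be technical. For each gene the test drew that spread partly from other genes, as each group has only 2 libraries.

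The protein p53 is held at a low level by the ubiquitin ligase Mdm2, whose own gene is a p53 target, so that p53 activity raises its inhibitor. In human cells that lose centrosomes or spend too long in mitosis, the adaptor 53BP1 and the deubiquitinase USP28 stabilise p53 and stop division. In human and mouse cells with extra centrosomes, PIDD1 gathers at the centrosome and activates caspase-2, which cleaves MDM2. The product of tubgcp6 is part of the gamma-tubulin ring complex, from which microtubules grow at centrosomes and spindles.

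Counts per library lay between 14246582 and 20652276. Levels are given as CPM, which are counts scaled to a common library total by the TMM method. Differences are given as log2 fold changes of mutants over siblings with their standard error. A gene was called where edgeR's quasi-likelihood test over 20097 genes gave an adjusted p below 0.05. In the mutants 22.9% of all tested genes were called higher and 21% lower, 43.9% in all, so a call is common in this comparison. DESeq2, used as an alternative, called fewer genes, 3216 higher and 2926 lower, against 4595 and 4225 by edgeR. It was run on all 23236 rows with its own filter, so the 2 sets of counts do not share a denominator. Counts of the mutated gene were 510 and 531 in mutant libraries, against 498 and 803 in sibling libraries. In CPM its level was 30.1 and 29.2 in mutants, against 35.3 and 38.9 in siblings. The gene was lower by edgeR (log2 fold change -0.33 ± 0.10, adjusted p = 0.0123). That call was lost in DESeq2 (adjusted p = 0.0574) and without sibling replicate 2 (adjusted p = 0.267), within a range of 0.00273 to 0.267 over 10 alternatives. The label of whole animals could be checked with 12 organ genes, from muscle actc1b to liver fabp10a and neuronal elavl3, and the lowest count of any of them in any library was 427. Of these 12 genes 3 rose (myl7 of the heart, gfap of glia and krt4 of the skin) and 4 fell (rho of rods, prss1 of the exocrine pancreas, hbbe2 of red cells and elavl3), from a log2 fold change of -3.33 for rho to 0.70 for myl7. These 7 were named after their values were seen. Without sibling replicate 2 the number that rose was 1. The part that such shifts between tissues have in the values of the 9 members was not tested.

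Of the 6 p53 target genes, 5 rose in the mutants and 1 did not pass the test, where 22.9% of all tested genes were called higher. Their median log2 fold change was 0.81, against 0.0072 over all tested genes. The order of the log2 fold changes ran from phlda3 and mdm2 through cdkn1a and ccng1 to baxa, and only bbc3 was on the other side of 0. In bulk RNA a change in the number of cells of a type and a change of RNA per cell cannot be told apart.

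The feedback inhibitor gene mdm2 was read at 175 and 167 CPM in mutants, against 52.1 and 55.0 CPM in siblings. All 4 ratios of a mutant to a sibling library lay between 3.03 and 3.36. Its log2 fold change was 1.67 ± 0.09, or 3.19-fold (95% interval 2.81 to 3.61; adjusted p = 9.20e-16, edgeR). Its relative mdm4, which encodes a further p53 inhibitor, was at 70.3 and 75.1 CPM in mutants, against 78.0 and 84.8 CPM in siblings. With a log2 fold change of -0.16 ± 0.09 mdm4 did not pass (adjusted p = 0.140, edgeR). It passed without mutant replicate 2 (-0.22, adjusted p = 0.0266), within a range of 0.0266 to 0.658 over 10 alternatives.

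The largest difference of the 9 genes was that of phlda3, whose product restrains the kinase Akt in mammalian cells. It was read at 30.2 and 26.05 CPM in mutants, against 5.38 and 6.26 CPM in siblings. The log2 fold change was 2.26 ± 0.15, or 4.78-fold (95% interval 3.88 to 5.88; adjusted p = 1.22e-13, edgeR). The interval did not overlap that of mdm2, and 0.707% of tested genes had a higher log2 fold change, against 2.05% for mdm2.

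Both cell cycle members rose by less than mdm2, with intervals below that of mdm2. The gene cdkn1a encodes p21, the inhibitor of cyclin-dependent kinases (CDKs) through which p53 stops the cycle. It was read at 25.7 and 28.6 CPM in mutants, against 13.5 and 15.5 CPM in siblings, a log2 fold change of 0.90 ± 0.12 (1.87-fold, 95% interval 1.57 to 2.23; adjusted p = 6.88e-07, edgeR). The gene ccng1 encodes cyclin G1, an atypical cyclin. Its mutant libraries stood at 1994 and 1629 CPM and its sibling libraries at 1109 and 1097 CPM, so the mutants were above both siblings but spread more widely. The log2 fold change of ccng1 was 0.72 ± 0.09 (1.64-fold, 95% interval 1.44 to 1.87; adjusted p = 2.56e-07, edgeR), or 0.55 without mutant replicate 1 and 0.85 without mutant replicate 2.

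The pair of death genes among the targets had the lowest log2 fold changes of the 6. The gene baxa encodes Bax, which permeabilises the outer mitochondrial membrane. It was read at 49.9 and 41.6 CPM in mutants, against 32.4 and 35.8 CPM in siblings. The groups did not overlap, but the lower mutant library was only 1.16 times the higher sibling library. Its log2 fold change was 0.42 ± 0.11 (1.34-fold, 95% interval 1.15 to 1.55; adjusted p = 0.00198, edgeR). Without sibling replicate 1 the call was lost (0.35, adjusted p = 0.0690, the highest of a range that began at 2.98e-07 over 10 alternatives), and it was 0.27 without mutant replicate 1.

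The gene bbc3 encodes Puma, a BH3-only protein that is a main mediator of p53-dependent death. It was read at 25.0 and 22.9 CPM in mutants, against 28.8 and 28.1 CPM in siblings. Both mutant libraries were below both sibling libraries, the opposite side from the other 5 targets. The log2 fold change of -0.25 ± 0.11 (0.842-fold, unadjusted 95% interval 0.719 to 0.986) did not pass (adjusted p = 0.0713, edgeR). It passed with upper-quartile scaling (-0.28, adjusted p = 0.0439) and without mutant replicate 1 (-0.32, adjusted p = 0.0174), within a range of 0.0174 to 0.299 over 10 alternatives. None of the intervals that edgeR gave for the 5 raised targets reached that of bbc3. Both mutant libraries were above both siblings for 5 of the 6 targets and below them for bbc3, where 36.6% and 35.1% of all tested genes showed such a separation upwards and downwards.

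**Figure D1:**
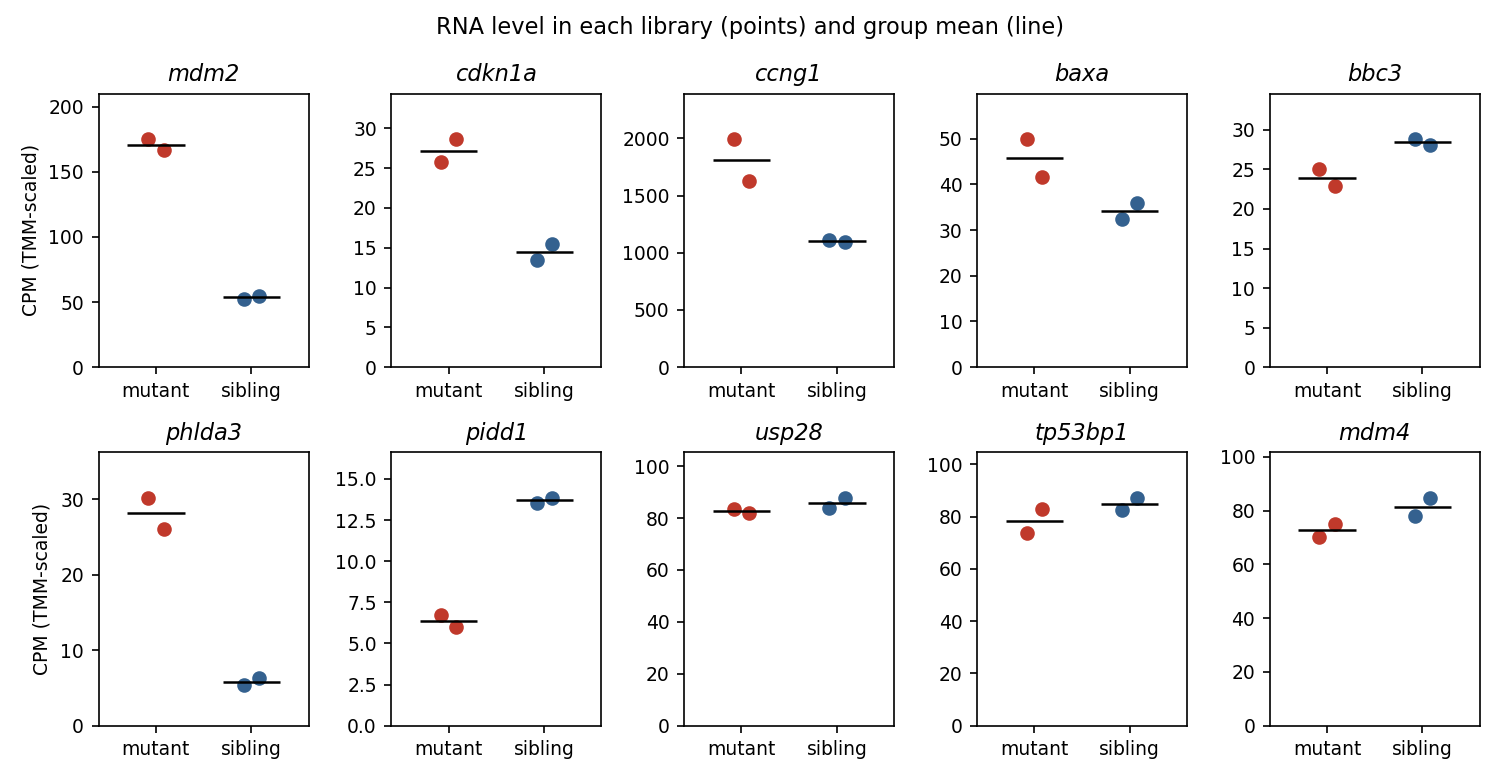
RNA level (CPM after TMM scaling, vertical axes from 0, a different scale in each panel) of the 9 members and of mdm4 in the 2 mutant (left, red) and 2 sibling (right, blue) libraries, with the group mean as a line. The mutants lie above the siblings for mdm2, cdkn1a, ccng1, baxa and phlda3, and below them for bbc3, pidd1, mdm4 and, narrowly, usp28. The groups overlap for tp53bp1.

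Of the 3 sensor genes, 1 fell and 2 did not pass, where 21% of all tested genes were called lower. At an unadjusted p under 0.05 edgeR again called 1 lower and 0 higher, where it called 4952 of 20097 tested genes lower and 5284 higher. With its adjusted p DESeq2 also called 1 lower and 0 higher, where it called 2926 genes lower and 3216 higher over the whole table. The median log2 fold change of the 3 sensors was -0.11, or -0.20 to -0.072 with single libraries left out, beside 0.81 for the 6 targets. With 3 and 6 genes this contrast is a description and was not tested.

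The gene usp28 was read at 83.5 and 81.8 CPM in mutants, against 83.8 and 87.9 CPM in siblings. The highest mutant library reached 0.997 of the lowest sibling library. The log2 fold change of usp28 was -0.055 ± 0.087 (adjusted p = 0.642, edgeR), and the 95% interval of its fold ran from 0.851 to 1.09. For tp53bp1, the gene of 53BP1, the mutant libraries stood at 73.9 and 83.0 CPM and the sibling libraries at 82.5 and 87.2 CPM, so that the groups overlapped. Its log2 fold change was -0.11 ± 0.09 (adjusted p = 0.323, edgeR), with a 95% interval of the fold from 0.813 to 1.05. It passed as lower without mutant replicate 2 (-0.20, adjusted p = 0.0355), and the adjusted p ranged from 0.0355 to 0.765 over 10 alternatives. Both intervals include 1, and both end below the 1.87-fold of cdkn1a.

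The third sensor gene, pidd1, was the member that fell. PIDD1 is the core of the caspase-2 activating PIDDosome, and the gene was named for its induction by p53 in mouse cells. It was read at 114 and 109 counts in mutants, against 191 and 286 counts in siblings, or 6.74 and 6.002 CPM against 13.5 and 13.9 CPM. Each mutant library lay at 0.433 to 0.498 of a sibling library. The log2 fold change was -1.11 ± 0.16 (0.464-fold, 95% interval 0.369 to 0.583; adjusted p = 1.69e-06, edgeR), and it stayed between -1.20 and -1.03 over 10 alternatives.

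The gene pidd1 lies near the mutated gene. In RefSeq's gene order on the assembly GRCz12tu, which is not the build of the counts and was used for names and order only, pidd1 and tubgcp6 both lie on chromosome 25 with 15 tested genes between them. The other 8 members lie on other chromosomes. Of those 15 genes, 6 were called lower and 1 higher. On the whole chromosome 22.3% of 561 tested genes were called lower and 18.5% higher, against 20.9% and 23.4% on the other chromosomes. Animals sorted as tubgcp6 mutants also share the alleles next to that gene, while the siblings may be mixed there. A difference of pidd1 that comes with the neighbouring alleles and one that comes with the loss of tubgcp6 cannot be told apart in this design.

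All 3 sensor genes overlap other genes. In the same assembly pidd1 overlaps the lipase gene pnpla2, tp53bp1 overlaps tubgcp4, and usp28 overlaps htr3b, which has no row of its own in the table. The strand setting of the counting was not given, so reads from such overlaps may have been lost or shared. The level of pnpla2 was 21.3 and 19.5 CPM in mutants, against 23.2 and 24.9 CPM in siblings (log2 fold change -0.24 ± 0.12, adjusted p = 0.100, edgeR). For tubgcp4, a further subunit gene of the gamma-tubulin ring complex, it was 17.0 and 20.1 CPM in mutants, against 17.9 and 15.2 CPM in siblings (0.18 ± 0.13, adjusted p = 0.287, edgeR). None of the 6 target genes overlapped another gene in that assembly.

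**Figure D2:**
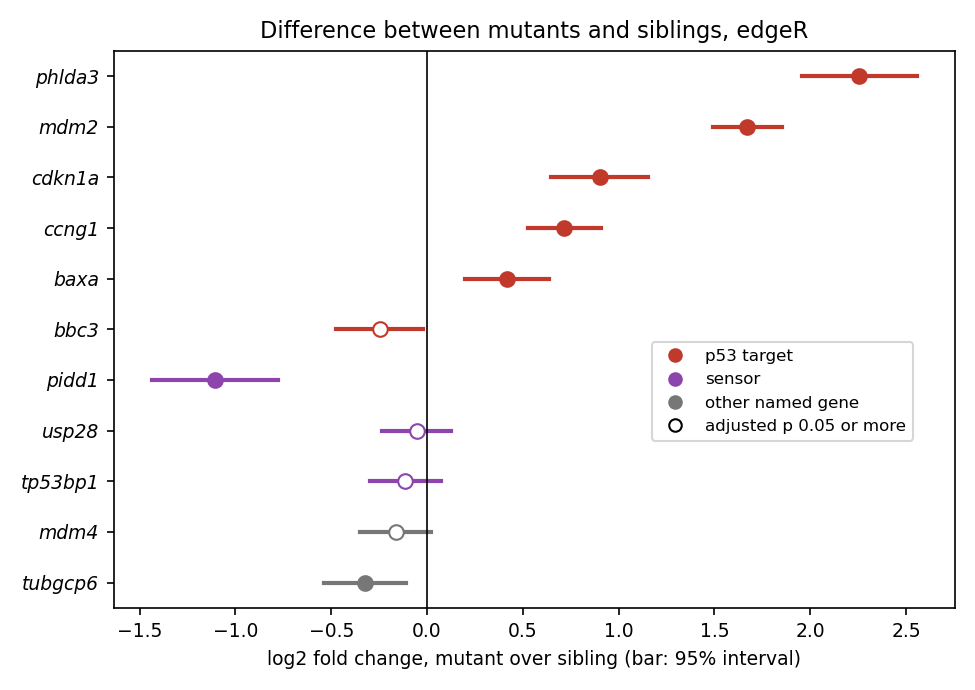
Log2 fold change of mutants over siblings (horizontal axis) with its 95% interval for the 6 p53 targets (red), the 3 sensors (purple) and mdm4 and tubgcp6 (grey). Filled points passed an adjusted p of 0.05 in edgeR. The targets spread from -0.25 for bbc3 to 2.26 for phlda3, while usp28 and tp53bp1 lie near 0 and pidd1 at -1.11.

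Of 8 genes of p53 relatives and p53 regulators, mdm4 among them, 2 rose, 1 fell and 5 did not pass, shares near or under the 22.9% and 21% of all tested genes called higher and lower. Their median log2 fold change was -0.078, or -0.12 to 0.044 with single libraries left out. The 2 that rose were tp63 and tp73, which encode relatives of p53. The gene tp63, a regulator of the epidermis, stood at 70.0 and 68.1 CPM in mutants, against 39.9 and 37.2 CPM in siblings (0.84 ± 0.09, adjusted p = 1.62e-08, edgeR). The gene tp73 was read at 4.91 and 5.89 CPM in mutants, against 2.55 and 1.99 CPM in siblings (1.28 ± 0.25, adjusted p = 0.000116, edgeR). The gene that fell was hipk2, of a kinase that phosphorylates p53 in human cells (-0.66 ± 0.11, adjusted p = 1.58e-05, edgeR). Without mutant replicate 1 or without mutant replicate 2 the number that fell was 2.

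Of 8 tested partners of the surveillance pathway 2 rose and 6 did not pass, a share near the 22.9% of all tested genes called higher. Their median was -0.065, or 0.047 without mutant replicate 1 and -0.17 without mutant replicate 2. In 4 alternatives 1 partner was called lower, namely upper-quartile scaling, the replicate block and leaving out mutant replicate 1 or 2. The gene casp2, of the caspase that the PIDDosome activates, was read at 24.4 and 26.4 CPM in mutants, against 17.8 and 19.3 CPM in siblings. Its log2 fold change was 0.45 ± 0.12 (adjusted p = 0.00264, edgeR). The gene plk4, of the kinase that starts centriole duplication, was at 0.72 ± 0.20 (adjusted p = 0.00369, edgeR). Without sibling replicate 1 the call of casp2 was lost (adjusted p = 0.0651), and without sibling replicate 2 that of plk4 (adjusted p = 0.0667), so that 1 gene remained called higher in each case. These were the highest adjusted p-values in ranges over 10 alternatives that began at 0.000242 for casp2 and 0.00161 for plk4. The PIDDosome adaptor gene cradd, with 27 and 34 counts in mutant libraries, against 20 and 22 in sibling libraries, did not pass (0.52 ± 0.36, adjusted p = 0.252, edgeR). It was named after its values were seen.

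Of 17 tested genes of DNA damage signalling, some of which act upstream of p53, 10 rose and 7 did not pass. Over all tested genes 22.9% were called higher. The median of the 17 was 0.49. The checkpoint kinase genes chek1 (2.20 ± 0.31) and chek2 (1.64 ± 0.27) and the damage kinase gene atr (0.85 ± 0.16) had the smallest p-values. For chek1 the libraries held 82 and 72 counts in mutants, against 12 and 21 counts in siblings, so its size is known less well than that of mdm2. Where DESeq2 called 3216 genes higher over the whole table, it called 7 of the 17. With single libraries left out the median was 0.345 to 0.459, below that of the full fit, and fewer of the 17 rose each time. Without mutant replicate 1 a call in the lower direction appeared too.

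Of 23 tested other known p53 targets of arrest, repair, metabolism and feedback 9 rose, 4 fell and 10 did not pass, where 22.9% of all tested genes were called higher and 21% lower. The median was 0.051, or -0.0092 with mutant replicate 1 left out and 0.21 with sibling replicate 1 left out. The gene rps27l, of a ribosomal protein relative induced by p53 in human cells, was read at 134 and 119.7 CPM in mutants, against 51.2 and 46.3 CPM in siblings (1.38 ± 0.09, adjusted p = 3.09e-13, edgeR). The sestrin gene sesn1, of a stress-induced inhibitor of TORC1 signalling, fell to 204 and 198 CPM in mutants, against 399.6 and 400.8 CPM in siblings (-0.99 ± 0.08, adjusted p = 2.47e-11, edgeR). The gene ddb2, of a sensor of ultraviolet DNA lesions, fell too (-0.82 ± 0.11, adjusted p = 2.43e-07, edgeR). DESeq2 called 7 of them higher and 2 lower, where it called 3216 and 2926 over the whole table. The number that fell was also 2 with library totals as the only scaling and with no filter on low counts. With single libraries left out fewer rose in some fits, and the number that fell moved in both directions.

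Of 8 tested death-related targets 5 rose and 3 did not pass (median 0.63), beside the same 22.9%. Initiator caspase gene casp8 stood at 22.2 and 21.9 CPM in mutants, against 11.5 and 8.63 CPM in siblings (1.16 ± 0.14, adjusted p = 9.11e-08, edgeR). The desmosome gene perp rose by 0.64 ± 0.08 and the growth factor binding protein gene igfbp3 by 0.76 ± 0.11 on the log2 scale. The apoptosome gene apaf1 (0.34 ± 0.10) and the oxidoreductase gene aifm2 (0.61 ± 0.10), both named after their values were seen, were the other 2 that rose. Other Bcl-2 family genes, pmaip1 among them, were left out of this list and counted apart. Of those 3 rose and 2 fell, with pmaip1 among the latter.

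Of 19 tested other genes of the Bcl-2 family, to which baxa and bbc3 belong, 3 rose, 2 fell and 14 did not pass (median 0.050), where 22.9% of all tested genes were called higher and 21% lower. The second Bax gene, baxb, was read at 7.51 and 6.28 CPM in mutants, against 3.05 and 2.62 CPM in siblings (1.30 ± 0.23, adjusted p = 2.50e-05, edgeR). The difference from the 0.42 of baxa was not tested. The survival gene mcl1b rose (0.82 ± 0.09), as did bcl2l11, of the BH3-only protein Bim (0.71 ± 0.27). The genes that fell were bmf2 (-0.59 ± 0.15) and pmaip1 (-0.30 ± 0.11), which encode BH3-only proteins like that of bcl2l11. The genes bcl2l11 (adjusted p = 0.0352, edgeR) and pmaip1 (adjusted p = 0.0218, edgeR) were named after their values were seen. DESeq2 called 2 of the 19 genes higher and 1 lower, where it called 3216 and 2926 over the whole table. Neither bcl2l11 nor pmaip1 was among its calls. Without mutant replicate 1 the number that fell was 5, and without sibling replicate 1 it was 1.

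Of 8 tested other CDK inhibitor genes 1 rose, 3 fell and 4 did not pass (median -0.35), where 22.9% of all tested genes were called higher and 21% lower. The gene that rose was cdkn2a/b (0.93 ± 0.29), with 58 and 55 counts in mutant libraries, against 20 and 39 in sibling libraries. Its call was lost with DESeq2 (adjusted p = 0.0968) and without sibling replicate 1 (adjusted p = 0.0954). Over 10 alternatives its adjusted p ranged from 0.00714 to 0.0968. The genes that fell were cdkn1d (-0.73 ± 0.08), cdkn1bb of the p27 family (-0.30 ± 0.09) and cdkn1ca of the p57 family (-0.43 ± 0.15), the last of these named after its values were seen. DESeq2 called 2 of the 8 genes lower, where it called 2926 lower over the whole table, and cdkn1ca was not among the 2. The call of cdkn1bb was lost without sibling replicate 1 (log2 fold change -0.27) and without sibling replicate 2 (-0.34), beside -0.30 with all libraries. The number that rose was 2 without mutant replicate 1 or 2.

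Cell cycle genes that p21 is known to repress through the DREAM complex were higher beside the higher cdkn1a. All 20 listed genes of this kind rose, with a median of 1.53, where 22.9% of all tested genes were called higher. DESeq2, which called 3216 genes higher over the whole table, called 19 of the 20 higher. Their summed level was 501 and 546 CPM in mutants, against 184 and 176 CPM in siblings. Of these 20 genes cdc20, the mitotic exit activator, had a log2 fold change of 2.01 ± 0.15, and cdkn1a itself one of 0.90. Of 10 tested leukocyte genes 8 fell and 1 rose, where 21% of all tested genes were called lower and 22.9% higher. The summed level of the leukocyte genes was 56.9 and 52.98 CPM in mutants, against 97.8 and 91.3 CPM in siblings. Of these sums mpx alone gave 28.9 and 25.4 CPM in mutants, against 20.3 and 19.8 CPM in siblings. The 1 that rose, mpx, was not called without sibling replicate 2. No leukocyte gene of the list was at 0 in all libraries, although lyz stood at 3 and 0 counts in mutant libraries, against 14 and 22 in sibling libraries. Both mpx and lyz were named after their values were seen. The part that dividing cells or leukocytes have in the values of the 9 members was not tested.

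**Figure D3:**
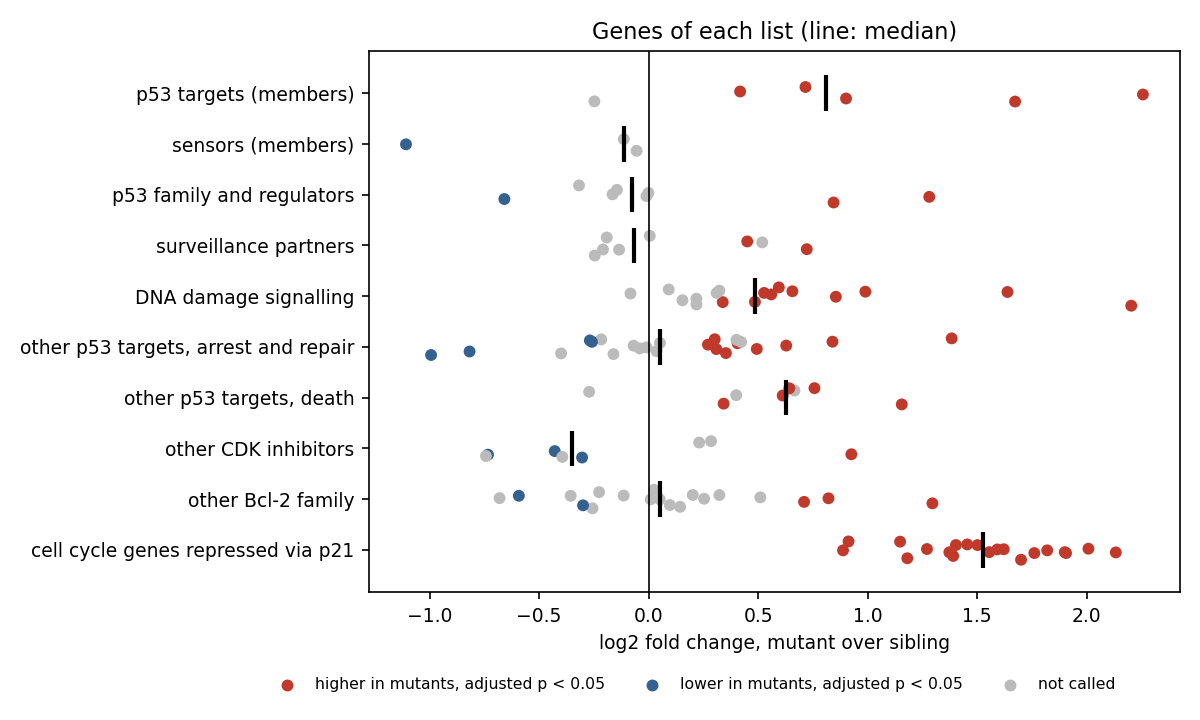
Log2 fold change of mutants over siblings (horizontal axis) for each tested gene of the 10 lists (rows), with the median of the list as a black line; red points were called higher and blue points lower by edgeR, and grey points were not called. The cell cycle genes that p21 is known to repress all lie right of 0, and the sensors all lie left of it. Every other list has genes on both sides of 0, and the CDK inhibitors have a median of -0.35.

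Among 111 genes of these pathway lists, the profile over the 4 libraries closest to that of mdm2 was that of cyclin B2 gene ccnb2, with a root mean square distance of 0.0724 on the log2 scale after each gene's own mean was taken off. Mitotic kinase genes plk1 (0.0780) and bub1 (0.102) came next. Closest to cdkn1a were the histone gene h2ax (0.0637), atr (0.0896) and tp63 (0.131). With 2 libraries in each group such a likeness is mostly a likeness in the size of the difference between groups.

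**Figure D4:**
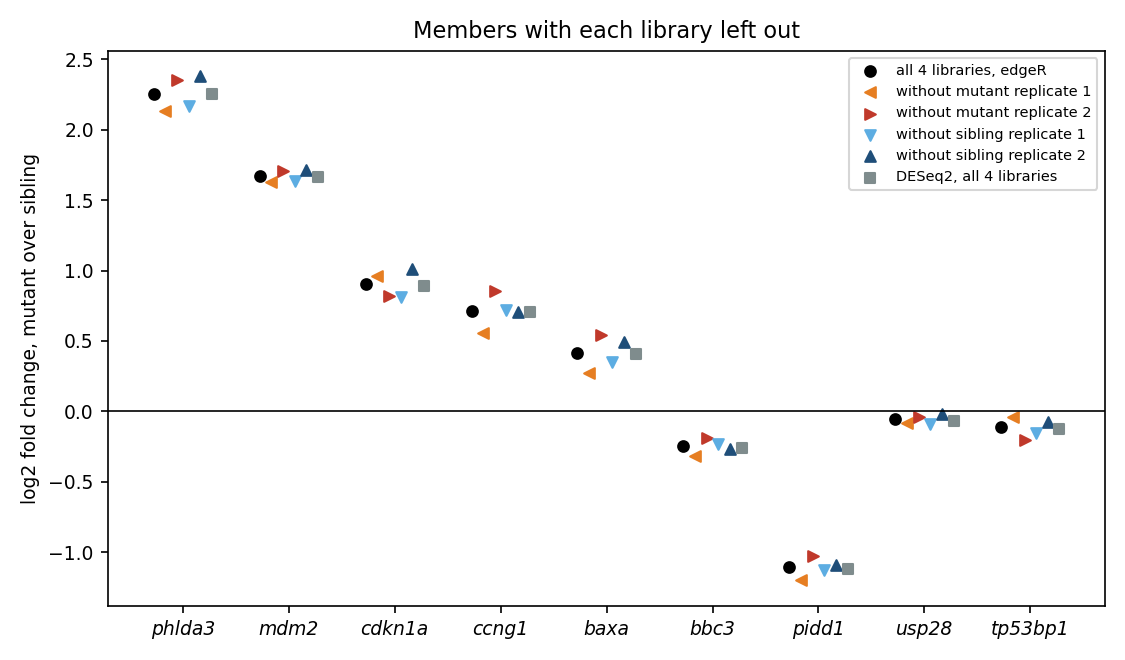
Log2 fold change of mutants over siblings (vertical axis) of the 9 members with all 4 libraries by edgeR (black), with each library left out in turn (triangles) and by DESeq2 (grey squares). No member changed sign; baxa moved between 0.27 and 0.54 and phlda3 between 2.14 and 2.38.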

How the data were processed

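Trizol RNA was made into NEBNext Ultra libraries, per the labels' protocols. The authors deposited raw counts per gene, as whole numbers, for 4 libraries. Tools named in the submitters' processing notes are STAR 2.7.10a and featureCounts 2.0.1, beside fastp 0.23.2, DESeq2 1.26.0, R 4.2.2 and the build GRCz11, with no roles. For annotation, strand and multi-mapping reads, settings were not given in the sources used.

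The test was that of edgeR 4.0.16 in R 4.3.3 (filterByExpr, which removed 3139 rows; TMM; glmQLFit with legacy=FALSE; glmQLFTest), mutants over siblings without a replicate block, and p-values were adjusted by Benjamini-Hochberg over 20097 genes. Standard errors are the log2 fold change divided by the root of F, and 95% intervals are unadjusted. Alternatives were DESeq2 1.42.0, 3 other scalings, no filter, a replicate block and each library left out. The test was tested on simulated data. An exact permutation of 2 against 2 libraries cannot give a two-sided p under 0.333.

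The 9 members and the 10 other lists (150 entries with the members, 142 of them with a row) were chosen with earlier results of these data known. Named genes are the members, mdm4, tubgcp6, up to 3 called genes with the smallest p per pathway list and 3 likeness genes each for mdm2 and cdkn1a; exceptions are stated. Besides, 1 gene was left out of the lists and their counts and is not reported here.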

Additional observations from a re-analysis of the deposited data

How the results depend on the processing

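With 10 alternatives for each of the 9 members, none changed sign. The calls of phlda3, mdm2, cdkn1a, ccng1 and pidd1 held in all 10 and usp28 passed in none, while the call of baxa was lost without sibling replicate 1 and bbc3 and tp53bp1 passed in 2 and 1. Leaving out 1 library in turn gave log2 fold changes of 2.14 to 2.38 for phlda3, 1.63 to 1.71 for mdm2, 0.81 to 1.01 for cdkn1a, 0.55 to 0.85 for ccng1, 0.27 to 0.54 for baxa, -0.32 to -0.19 for bbc3, -1.20 to -1.03 for pidd1, -0.089 to -0.021 for usp28 and -0.20 to -0.042 for tp53bp1. With upper-quartile scaling bbc3 was at -0.28, which made 1 target called lower. Leaving out single libraries gave 4 to 5 targets called higher, 0 to 1 called lower, and 1 to 2 sensors called lower. Over the whole table it gave 2977 to 4840 genes higher and 2429 to 4680 lower, with the lowest counts without sibling replicate 2, where the spread rests on the mutant pair alone; DESeq2 called 3216 higher and 2926 lower. Replicate numbers are shared by the groups, but the labels do not say that they pair libraries, and the deviations of same-numbered libraries had a correlation over genes of 0.0182. With the replicate block 4827 genes were called higher and 4521 lower, against 4595 and 4225 without it, with the same 5 target and 1 sensor calls. The causes of these shifts were not tested.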
